A study of Mus musculus with 20 samples.

Results

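Germline stem cells (GSC) were compared with mouse embryonic fibroblasts (MEF), the somatic cells that also served as their feeder layer. The comparison takes all 3 GSC arrays and all 3 MEF arrays of a series of 20 mouse arrays, and every gene with an array value was tested, 18193 in all. Each gene stands for 1 probe set, the one with the highest mean over the 20 arrays. The GSC lines were established from testes of OG2 mice, an Oct4-GFP transgenic strain (B6;CBA-Tg[Pou5f1-EGFP]2Mnn/J) in which the Oct4 promoter drives green fluorescent protein. They grew in a StemPro-34 based medium with 10 ng/ml GDNF, 20 ng/ml EGF, 10 ng/ml basic FGF and leukemia inhibitory factor, on MEF that had been inactivated with mitomycin C. The MEF arrays came from cells of C3H embryos at E12.5 (embryonic day) under standard culture, so strain, medium and developmental age differ between the groups together with the cell type, and these cannot be told apart. The labels do not say whether replicate arrays came from separate lines, animals or cultures, and the p-values therefore measure the spread between these arrays, which may be technical. The other 14 arrays, of pluripotent and neural stem cells, entered the estimate of spread, the choice of probe set and the median of all values, and their levels are given only beside the fibroblast markers.

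Germline stem cells are the cultured form of the spermatogonial stem cells that renew sperm production for life. They are held in the undifferentiated state by GDNF acting through the receptor Ret and its co-receptor Gfra1, and they carry a germ line programme (RNA-binding proteins, the piRNA pathway that silences transposons, and genes used later in meiosis) that body cells keep silent through DNA methylation and Polycomb-type repressors. Fibroblasts are contractile connective tissue cells that secrete collagens, matrix glycoproteins and growth factors, the last being one reason they are used as feeder cells.

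All values are log2 intensities, and a difference is GSC minus MEF in log2 units. A gene was called when its Benjamini-Hochberg adjusted p from limma was under 0.05 and the difference was at least 2-fold. On this rule 5169 of the 18193 genes differed (28.4%), with 2827 genes higher in GSC (15.5%) and 2342 lower (12.9%). The median difference over all genes was 0.0726. Among the called genes 160 were at least 16-fold higher in GSC and 233 at least 16-fold lower. In each of the 5169 called genes the 3 GSC values lay wholly on one side of the 3 MEF values, as they did in 11566 of all 18193 genes. RMA marks no gene as absent. A level under 4.98, the median over all probe sets and arrays, can be no more than background. The size of a difference against such a level is uncertain. This applies to 693 of the genes called higher, through their MEF mean, and to 629 of those called lower, through their GSC mean.

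**Figure D1:**
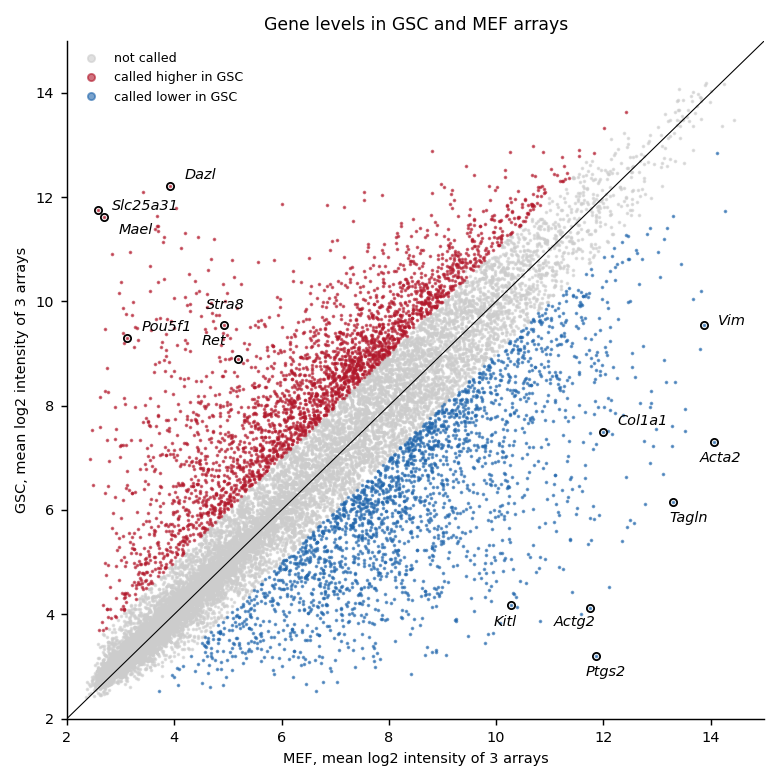
Mean log2 intensity of each of the 18193 genes in GSC (vertical axis, 3 arrays) against MEF (horizontal axis, 3 arrays); red points are the 2827 genes called higher in GSC, blue points the 2342 called lower, grey points the rest, and the line marks equal levels. Germ cell genes such as Slc25a31 and Dazl lie in the upper left corner, and contractile genes such as Acta2 and Tagln far to the lower right.

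The arrays correlated across genes at 0.991 to 0.993 within GSC, at 0.997 within MEF and at 0.843 to 0.850 between the groups. The spread between GSC arrays was the wider, with a median SD over genes of 0.175 in GSC and 0.0905 in MEF. GSC replicate 1 stood apart in its beta-actin control probes, whose 3' signal exceeded the 5' signal by 1.25 log2 units, against 0.509 and 0.493 in the other GSC arrays and 0.119 to 0.174 in MEF. Without that array 5103 genes were called, 2708 higher and 2395 lower.

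The label of the MEF arrays was set beside fibroblast markers, a list chosen with earlier results of these data known. The marker counts describe the arrays and are no independent check of the label. All 31 measured markers were called lower in GSC, with a median difference of -4.04, and the summed level of the list was 12.54 to 12.77 in GSC and 17.10 to 17.11 in MEF on the log2 scale. The median level over the 31 markers was 5.73% to 6.11% of the MEF level in the GSC arrays, 1.62% to 2.06% in embryonic stem cells, which were also kept on fibroblasts, and 4.29% to 4.59% in neural stem cells. Over the 22 markers with a MEF mean above 10, a filter that itself lowers the share, it was 3.39% to 4.06%, 1.01% to 1.37% and 2.81% to 3.46% in the same order. With the neural stem cell level subtracted, the 22 markers stood at 0.381% to 0.550% of the MEF level in GSC. The same subtraction gave -1.57% to -1.04% in embryonic stem cells. The neural stem cell level is thus above background for these markers, and the GSC value is no measure of remaining fibroblast RNA. GSC are a bulk culture, so fewer fibroblasts and less RNA per fibroblast cannot be told apart, and the part of feeder RNA in the levels below was not tested. Of the spermatogonial lists, 19 of 21 measured markers of undifferentiated spermatogonia were called higher in GSC, and their summed level was 14.65 to 14.90 in GSC and 11.16 to 11.25 in MEF. The exceptions were Id4, a helix-loop-helix inhibitor of stem spermatogonia (9.55 in GSC and 10.27 in MEF), and the homeobox gene Lhx1 (4.27 and 3.59). A second probe set of Lhx1, the brighter one in these 6 arrays, gave a difference of 2.28 and would be called. Markers of differentiating spermatogonia were higher in 7 of 10 measured cases and lower in 1, with a median difference of 3.48. Spermatogonial surface markers ran both ways, with 9 of 25 higher, 7 lower and 9 not called, and their summed level was 13.72 to 13.73 in GSC and 13.98 to 14.02 in MEF.

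The largest rises were in germ line genes. Slc25a31, the ADP/ATP carrier of germ cell mitochondria, had 11.77, 11.78 and 11.70 in the GSC arrays and 2.36, 2.52 and 2.84 in the MEF arrays, a difference of 9.17 ± 0.16 (SE, adjusted p = 7.29e-20). The MEF values lie in the background range, and the GSC values far above it. Of 31 measured genes of germ cell RNA regulation and the piRNA pathway, 26 were called higher (15.5% of all genes were), 1 lower and 4 not, and the median difference was 5.09. Mael, which works in piRNA-directed transposon silencing, had 11.69, 11.50 and 11.64 in GSC and 2.92, 2.59 and 2.58 in MEF, a difference of 8.92 ± 0.34. Dazl, the RNA-binding protein that commits cells to the germ line, had 12.25, 12.13 and 12.25 in GSC and 4.15, 3.64 and 3.99 in MEF, a difference of 8.28 ± 0.15. All 3 MEF arrays lay far below the lowest GSC array in both genes.

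Piwil2, a PIWI protein that binds piRNAs, was 7.74 higher, Gtsf1, its zinc finger partner in piRNA silencing, 7.76, and Stk31, a Tudor domain kinase of germ cells, 8.06. Ddx4, the vasa RNA helicase of the germ line, had 11.95, 11.79 and 11.68 in GSC and 7.13, 7.21 and 7.16 in MEF, a difference of 4.64 ± 0.25. Its MEF values were well above the median of all values. The member called lower was Mybl1, a transcription factor of pachytene spermatocytes, with 4.28 in GSC and 6.59 in MEF. Pum2, a translational repressor that is widely expressed, had 9.23 in GSC and 9.30 in MEF and was not called.

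Meiotic genes were also far above fibroblast level. Of 29 measured genes 21 were called higher and none lower, with a median difference of 3.51. Sycp3, a core protein of the synaptonemal complex, had 11.32, 11.46 and 11.28 in GSC and 3.79, 3.57 and 3.74 in MEF, a difference of 7.65 ± 0.23. Stag3, the meiotic cohesin subunit, had 10.83, 10.66 and 10.53 in GSC and 3.56, 3.63 and 3.43 in MEF, a difference of 7.13 ± 0.18. Stra8, the retinoic acid target that marks entry into meiosis, had 9.50, 9.56 and 9.56 in GSC and 4.98, 5.04 and 4.77 in MEF, a difference of 4.61 ± 0.38. No gene of these 3 had overlapping groups. Tex11, an X-linked meiotic crossover gene, rose by 7.19, and Sycp1 and Sycp2, further structural proteins of the complex, by 6.36 and 6.84.

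Not every meiotic gene was above MEF. Prdm9, the methyltransferase that places recombination sites, had 4.70 in GSC and 4.87 in MEF (adjusted p = 0.281), and Meikin, which directs kinetochores in the first meiotic division, had 3.67 and 3.65 (adjusted p = 0.946). Of 20 genes of the later, postmeiotic stages 2 were called higher and 18 were not called, beside 15.5% higher and 12.9% lower over all genes. Their median difference was -0.04. The called members were Ldhc, the sperm lactate dehydrogenase, at 6.33 in GSC and 4.48 in MEF, and the acrosome gene Spaca1 at 5.28 and 3.44. Akap4, the scaffold of the sperm tail, had 5.00 in GSC and 4.99 in MEF, and the sperm channel Catsper1 3.54 and 3.54.

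Promoter sequences of 5 germ line genes are shown because the silencing of many such genes in body cells is known to pass through a Polycomb complex that contains E2f6, Mga and Max, whose binding letters are GCGGGA (or its reverse complement TCCCGC) for E2f6 and CACGTG, the E-box, for Mga with Max. RefSeq windows (GRCm38.p6, 250 bases before to 50 after the start, 1 window per gene) were found for 14452 of the tested genes. Each line gives the last 100 bases before the start, 5' to 3' on the gene's strand, with both motifs in capitals.
Nxf2 (chrX:134964755-134964854, minus strand): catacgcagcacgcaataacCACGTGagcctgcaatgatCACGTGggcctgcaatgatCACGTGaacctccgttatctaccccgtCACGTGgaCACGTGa
Taf7l (chrX:134476491-134476590, minus strand): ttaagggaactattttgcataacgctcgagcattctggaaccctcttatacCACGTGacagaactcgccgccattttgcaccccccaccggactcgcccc
Ddx4 (chr13:112652311-112652410, minus strand): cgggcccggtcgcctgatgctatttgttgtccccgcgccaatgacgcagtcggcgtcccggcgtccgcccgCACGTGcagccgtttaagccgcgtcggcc
Sycp3 (chr10:88459487-88459586, plus strand): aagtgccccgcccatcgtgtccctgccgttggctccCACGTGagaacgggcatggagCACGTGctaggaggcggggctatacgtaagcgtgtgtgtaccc
Hormad1 (chr3:95559577-95559676, plus strand): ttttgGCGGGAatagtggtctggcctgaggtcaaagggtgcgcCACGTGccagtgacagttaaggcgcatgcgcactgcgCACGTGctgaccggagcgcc

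The stretch of Nxf2, which encodes an X-linked mRNA export factor, holds the E-box 5 times. Hormad1, a meiotic chromosome axis gene at 7.59 in GSC and 2.62 in MEF, holds the E2f6 letters and 2 E-boxes. Over whole windows the E-box stood in 9 of 26 germ cell RNA genes (34.6%), 5 of 23 meiosis genes (21.7%) and 4 of 18 X-linked germ cell genes (22.2%), beside 9.02% of the tested genes. All 5 promoters shown hold it, while most members of these lists do not. Its share was 13% in all genes called higher and 21.4% in those at least 16-fold higher, sets that overlap the lists. The E2f6 letters stood in 34.6%, 56.5% and 5.56% of the same lists, beside 29.8% of the tested genes. They also stood in 41.9% of collagen windows and 35.6% of contractile windows. Genes called higher had them in 38.8% and genes called lower in 34.3%, so the germ cell RNA share does not stand out. In the last 100 bases alone the E-box shares were 19.2%, 17.4% and 16.7%, beside 4.10%. The windows of Dazl and Stra8 hold neither motif. A match is a description of the letters and not a binding site.

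The repressor genes were themselves on the array. Mga was higher in GSC by 3.11 ± 0.17, with 10.14 in GSC and 7.03 in MEF, and its partners L3mbtl2 and Pcgf6 by 1.37 and 1.29. E2f6 (10.02 in GSC and 9.23 in MEF) and Max (7.54 and 8.40) differed by under 2-fold and were not called. These last 4 genes were chosen after their values were seen.

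Transcription factors of spermatogonia were higher in 19 of 28 measured cases and lower in none, with a median difference of 2.12. Dmrt1, which keeps spermatogonia from entering meiosis early, had 11.68, 11.21 and 11.46 in GSC and 3.97, 3.57 and 3.47 in MEF, a difference of 7.78 ± 0.25. Sall4, a zinc finger factor of stem and progenitor spermatogonia, had 11.24, 10.78 and 11.03 in GSC and 3.86, 4.22 and 4.31 in MEF, a difference of 6.89 ± 0.14. Zbtb16 (PLZF), needed for stem cell self-renewal, had 6.79, 7.16 and 7.61 in GSC and 4.94, 5.13 and 5.09 in MEF, a difference of 2.13 ± 0.18. The groups were separate in all 3, with the widest spread among the GSC arrays of Zbtb16. Etv5, a factor induced by GDNF, was higher by 1.15 ± 0.25 (adjusted p = 0.000544), with GSC replicate 1 at 8.32 above the other GSC arrays at 7.39 and 7.24. Without replicate 1 the difference was 0.82 and Etv5 was not called.

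Part of the pluripotency network was also higher in GSC. Pou5f1 (Oct4), whose promoter drives the transgene of these mice, had 9.20, 9.15 and 9.53 in GSC and 3.31, 3.18 and 2.85 in MEF, a difference of 6.17 ± 0.17. Sox2, its partner in embryonic stem cells, had 9.85, 9.69 and 9.66 in GSC and 4.76, 4.62 and 4.97 in MEF, a difference of 4.95 ± 0.15. Nanog, the factor that marks full pluripotency, had 3.88, 4.11 and 3.88 in GSC and 3.66, 3.55 and 3.90 in MEF and was not called (adjusted p = 0.139). Lin28a, which blocks maturation of the let-7 microRNAs, rose by 7.76. Of 38 measured network genes 15 were higher, 4 lower and 19 not called, beside 15.5% higher and 12.9% lower over all genes. The lower share was thus near that of all genes. This list shares members with that of spermatogonial transcription factors, such as Lin28a and Sall4. The 4 lower ones were Myc and the Krüppel-like factors Klf5, Klf2 and Klf4, with differences of -4.39, -2.53, -1.39 and -1.15. Klf5 was at -0.72 and not called on its probe set of unshared sequence.

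**Figure D2:**
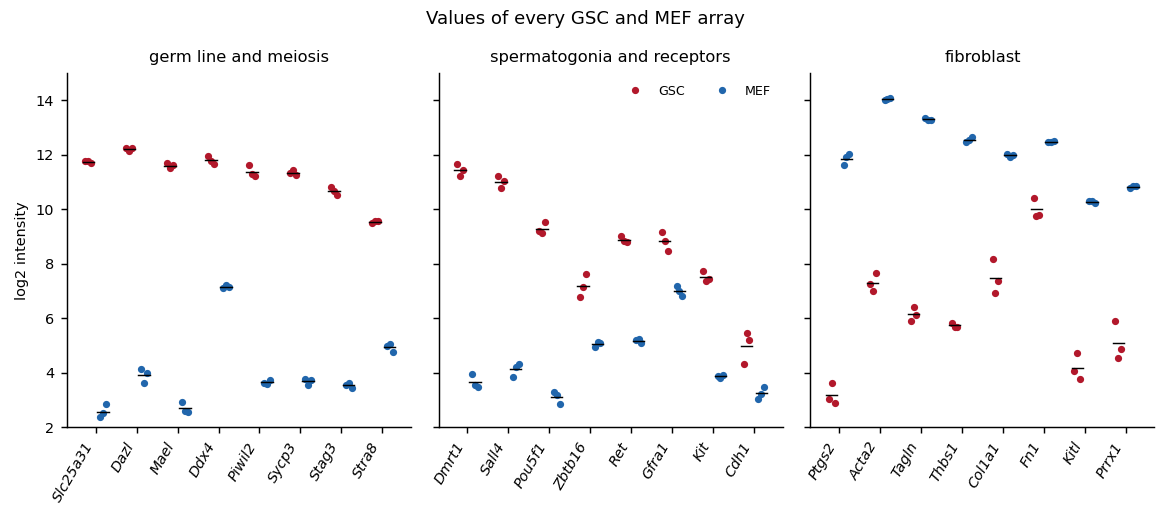
Log2 intensity in each of the 3 GSC arrays (red, left of each pair) and each of the 3 MEF arrays (blue) for 24 genes, with the mean as a bar. The groups are separate in every gene shown, and the widest spread within a group is among the GSC arrays, as for Col1a1 and Prrx1.

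The X chromosome held many of the strongest rises. Of its 617 tested genes 27 (4.38%) were called and at least 16-fold higher in GSC, beside 160 of 18027 placed genes (0.888%). The next highest share among the autosomes was 1.75%, on chromosome 3. Of 24 measured X-linked germ cell genes 14 were called higher and none lower. Taf7l, a germ cell variant of a general transcription factor subunit, had 11.61, 11.45 and 11.27 in GSC and 3.57, 3.70 and 3.83 in MEF, a difference of 7.74 ± 0.16. Nxf2 rose by 7.95, the transketolase-like gene Tktl1 by 7.43 and the MAGE family gene Mageb16 by 7.36. At the 2-fold threshold 16.4% of the X-linked genes were called higher, beside 15.6% of placed genes, and 20.6% were called lower, beside 13%.

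The sex-linked genes bear on the makeup of the samples. Xist, the RNA that silences one X in female cells, had 6.23, 5.66 and 6.00 in GSC and 8.42, 7.996 and 8.11 in MEF, a difference of -2.21 ± 0.25. The broadly expressed Y genes Eif2s3y (8.97 in GSC and 8.95 in MEF), Kdm5d (5.71 and 5.73) and Uty (6.54 and 6.64) were not called. Uba1y, the Y-linked ubiquitin-activating enzyme of spermatogonia, had 12.05, 12.10 and 12.16 in GSC and 3.36, 3.31 and 3.58 in MEF, a difference of 8.69 ± 0.17. The Y-linked Usp9y and Zfy2, both known from spermatogenesis, were higher by 4.34 and 2.52. The sex of the MEF embryos is not given by the labels, and its part in the X-linked differences was not tested.

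Some germ line genes are copies of a gene used in all cells, and 25 measured pairs of related genes were compared, which also include pairs of another kind, such as Mycn with Myc and Cdh1 with Cdh2. Both genes were higher in 6 pairs, the first was higher and the second lower in 5, and the first was higher and the second not called in 7. In the remaining pairs the first gene was not higher: in 3 only the second was lower, in 3 neither was called and in 1 both were lower. The germ cell carrier Slc25a31 rose by 9.17 while Slc25a4, the muscle and heart form, fell by 1.64. Pdha2, the testis form of pyruvate dehydrogenase, was higher by 4.59, and the somatic Pdha1 fell by 1.61. For Ldhc and Ldha, the lactate dehydrogenases of sperm and of body cells, the differences were 1.85 and -2.62. The testis phosphoglycerate kinase Pgk2 was not called, at -0.40, while the general form Pgk1 fell by 3.58. Smc1b, the meiotic cohesin, rose by 6.00 with its mitotic counterpart Smc1a at -0.01, and the ribosomal protein copy Rpl39l rose by 3.17 with Rpl39 at -0.35. Mycn and Myc, the growth regulators, differed in opposite directions, at 4.37 and -4.39, though the probe sets of Mycn did not all have one sign. Paralogs can share probe sequence, and cross-hybridisation between the copies was not tested.

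**Figure D3:**
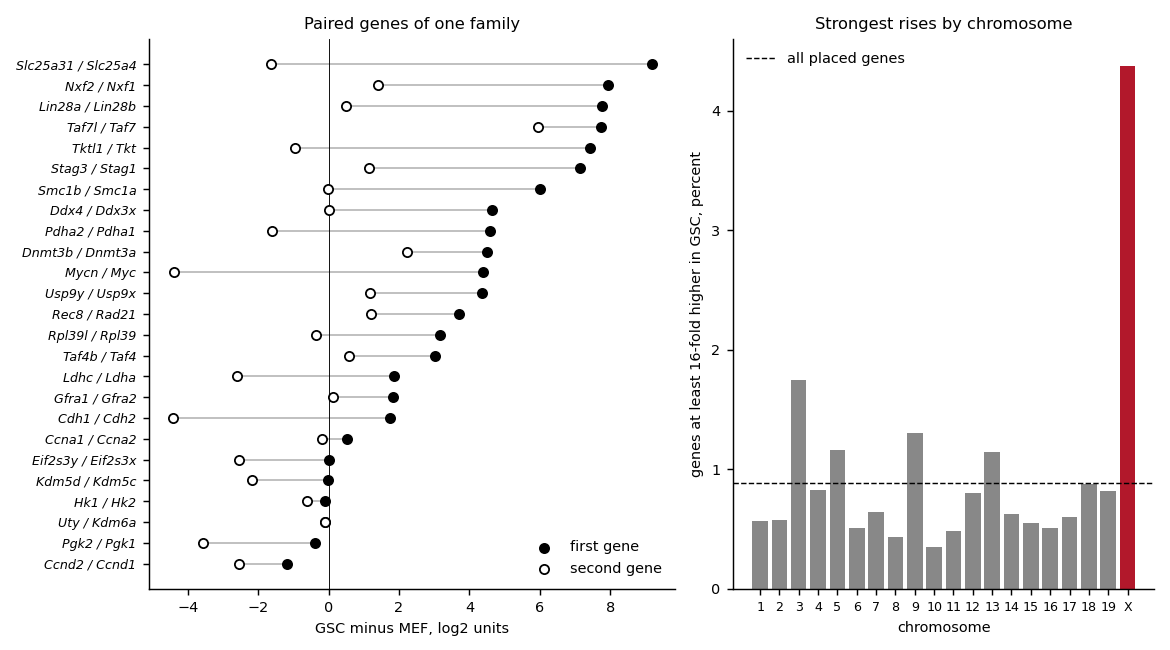
Left, the difference GSC minus MEF (log2 units) of both genes of the 25 measured pairs, the first gene filled and the second open; the first gene lies to the right in all pairs but Uty and Kdm6a, where the points coincide. Right, the percent of genes called and at least 16-fold higher in GSC on each autosome and the X, with the share of all placed genes (0.888%) dashed; the X bar stands at 4.38%, and the Y, with 9 genes, is not drawn.

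The GDNF receptor genes were higher in GSC, and the ligand genes Gdnf, Fgf2 and Kitl were lower. Ret, the GDNF receptor kinase, had 9.02, 8.83 and 8.81 in GSC and 5.21, 5.24 and 5.09 in MEF, a difference of 3.71 ± 0.14. Gfra1, its co-receptor, had 9.16, 8.84 and 8.48 in GSC and 7.17, 7.00 and 6.82 in MEF, a difference of 1.83 ± 0.15. The MEF level of Gfra1 was well above the background range, while that of Ret lay near it. Gdnf itself had 3.64, 3.55 and 3.99 in GSC and 5.52, 5.45 and 5.30 in MEF and fell by 1.70, and Fgf2 fell by 1.14 with all its values under 4.98. Lif was 4.38 in GSC and 5.31 in MEF, just inside the 2-fold limit, and was not called, whereas its receptor gene Lifr was higher by 1.58.

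The stem cell factor pair divided between the groups. Kit, the receptor of differentiating spermatogonia, had 7.73, 7.38 and 7.46 in GSC and 3.87, 3.82 and 3.91 in MEF, a difference of 3.66 ± 0.30. Kitl, its ligand, had 4.06, 4.73 and 3.76 in GSC and 10.31, 10.32 and 10.23 in MEF and fell by 6.10 ± 0.29. Neither gene had overlapping groups, and the 2 genes ran in opposite directions. Cxcl12, a chemokine of the stem cell niche, was 6.02 in GSC and 10.68 in MEF, with its receptor gene Cxcr4 at 4.32 and 4.20 and not called. Csf1, the macrophage growth factor, fell by 5.47, and its receptor gene Csf1r differed by -1.20, although the mean of the Csf1r probe sets was -0.56 and not called. The activin subunit gene Inhba fell by 6.37, and the activin receptor gene Acvr2b rose by 3.20.

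Over the lists, 8 of 47 measured receptor genes were higher in GSC, a share near the 15.5% of all genes, and 18 lower, and 4 of 70 secreted factor genes were higher and 38 lower, with a median of -1.69 for the factors. Osmr, the oncostatin M receptor, fell by 5.02, as did the receptor kinase Axl (-4.39) and the epidermal growth factor relative Ereg (-5.90). The 4 factors higher in GSC were Pdgfb (2.07), the Wnt inhibitor Sfrp1 (1.86, and 1.00, not called, on the mean of its probe sets), the BMP inhibitor Chrd (1.29) and the GDNF relative neurturin, Nrtn (1.26). Beside 15.5% higher and 12.9% lower over all genes, targets of GDNF and FGF signalling divided, with 9 of 29 higher and 8 lower. Among them Pou3f1 rose by 4.15, Egr4 by 1.86 and Bcl6b by 1.66, all known targets of GDNF in these cells, and the signal inhibitor Socs3 by 2.73. The growth factor response genes Fosl1 (-3.53), Dusp4 (-3.20) and Dusp6 (-1.48) fell, and Egr1 had the same mean, 9.91, in GSC and in MEF. The receptor genes Csf1r, Cxcr4 and Lifr and the ligand Csf1 were chosen after their values were seen.

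**Figure D4:**
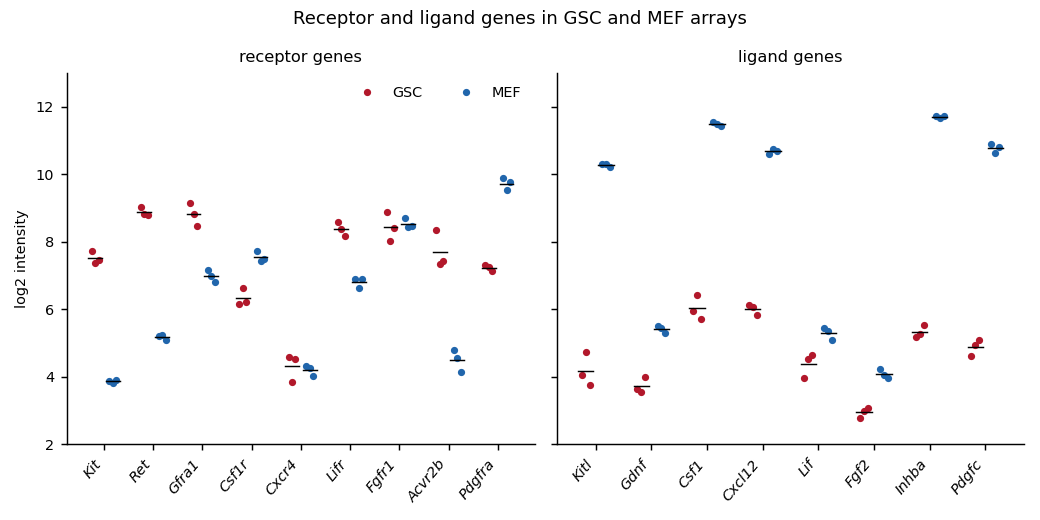
Log2 intensity of receptor genes (left) and ligand genes (right) in each GSC array (red, left of each pair) and each MEF array (blue), with the mean of 3 arrays as a bar. Kit, Ret and Gfra1 lie higher in GSC, and Kitl, Csf1, Cxcl12, Inhba and Pdgfc lie higher in MEF by over 4 log2 units.

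The largest falls included Ptgs2 and several contractile genes. Ptgs2, the inducible cyclooxygenase, had 3.05, 3.64 and 2.89 in GSC and 11.65, 11.92 and 12.03 in MEF and fell by 8.67 ± 0.28 (adjusted p = 4.88e-16). Of 54 measured actomyosin genes 46 were called lower (12.9% of all genes were), 1 higher and 7 not, with a median difference of -2.45. Acta2, smooth muscle actin, had 7.27, 6.99 and 7.65 in GSC and 14.02, 14.07 and 14.10 in MEF and fell by 6.76 ± 0.17. Tagln, an actin-binding protein of smooth muscle, had 5.91, 6.41 and 6.13 in GSC and 13.35, 13.28 and 13.28 in MEF and fell by 7.15 ± 0.21. The GSC arrays spread over more than the MEF arrays in both genes, and no array of one group came near the other. Actg2 and Myl9, an actin and a myosin light chain, fell, at -7.63 and -6.70. The exception was Mrtfb, a co-activator of serum response factor, which rose by 1.45 (0.29 and not called on the mean of its probe sets), and Myocd, the muscle member of that family, was at 3.80 in GSC and 3.83 in MEF. Srf itself, the gene of serum response factor, fell by 1.07 on a probe set whose name marks shared sequence, while its other probe set gave 0.18 and was not called.

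Serum response factor binds the CArG box, an A and T stretch flanked by C and G pairs, and the windows of contractile genes were searched for it. It stood in 8 of 45 windows of the list (17.8%), beside 1.36% of the tested genes, and in none of 31 collagen windows. Shown are 3 members with the box, in capitals, in the last 100 bases before the start (RefSeq, GRCm38.p6).
Acta1 (chr8:123894776-123894875, minus strand): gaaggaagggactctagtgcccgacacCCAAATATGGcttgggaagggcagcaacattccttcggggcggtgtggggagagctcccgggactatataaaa
Cnn2 (chr10:79988500-79988599, plus strand): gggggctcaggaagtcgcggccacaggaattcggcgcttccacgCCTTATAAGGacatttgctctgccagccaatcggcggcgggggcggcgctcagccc
Srf (chr17:46556163-46556262, minus strand): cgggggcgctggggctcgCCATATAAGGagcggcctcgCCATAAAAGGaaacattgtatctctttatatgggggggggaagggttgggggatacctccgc

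Acta1, skeletal muscle actin, fell by 6.37, and Cnn2, a calponin that steadies actin filaments, fell by 3.98. The Srf stretch holds 2 boxes. In the last 100 bases the share of the contractile list was 11.1%, beside 0.567% of tested genes. The Acta2 window has no perfect match to these letters. Cnn2 and Srf were chosen after their values were seen.

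Genes that answer TGF-beta and the YAP co-activator were lower in 23 of 31 measured cases and higher in none, with a median of -2.89. Ankrd1, a nuclear YAP target, fell by 7.57. Connective tissue growth factor, Ccn2, and its relative Ccn1 fell too, at -6.41 and -5.99. Thbs1, the matrix glycoprotein thrombospondin that activates TGF-beta, had 5.84, 5.70 and 5.68 in GSC and 12.47, 12.57 and 12.65 in MEF and fell by 6.82 ± 0.18. Tead3, a DNA-binding partner of YAP, and Skil, a TGF-beta inhibitor, were not called, at -0.21 and -0.30.

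Collagen chains were mostly lower in GSC or not called. Of 38 measured chains 17 were lower, 2 higher and 19 not called, and the median was -0.79. Over all genes 12.9% were lower and 15.5% higher. Col1a1, a chain of the main fibrillar collagen, had 8.17, 6.93 and 7.38 in GSC and 12.05, 11.92 and 11.998 in MEF and fell by 4.50 ± 0.29. Its GSC arrays ran unevenly, with replicate 1 the highest and replicate 2 the lowest, and all lay well below MEF. The chains Col1a2 (-4.72), Col5a2 (-5.95), Col8a1 (-6.34) and Col3a1 (-3.00) fell as well. The chains higher in GSC were Col18a1, a basement membrane collagen (9.03 in GSC and 7.06 in MEF), and the membrane-anchored Col13a1 (5.54 and 3.93). Enzymes that process collagen were lower in 19 of 28 cases and higher in none, among them the cross-linking oxidase Lox (-5.67) and the collagen chaperone Serpinh1 (-4.70). P4hb, a folding enzyme of all secretory cells, was level at 11.89 in GSC and 11.999 in MEF.

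Matrix glycoproteins were lower in 41 of 65 measured cases and higher in 4, and matrix proteases and their inhibitors lower in 19 of 35 and higher in none. Fn1, fibronectin, had 10.43, 9.77 and 9.81 in GSC and 12.48, 12.49 and 12.502 in MEF and fell by 2.49 ± 0.14. That fall was small beside tenascin C (Tnc, -5.95), the hyaluronan synthase Has2 (-5.65) and the hyaluronan receptor Cd44 (-6.02), the last with probe sets of both signs. The 4 matrix genes higher in GSC were the heparan sulfate proteoglycan Sdc4 (2.55), Matn4 (2.14), Fbln1 (1.78) and the basement membrane gene Smoc1 (1.75). Lamb1, a laminin chain, was not called, at 11.09 in GSC and 11.17 in MEF. The inhibitor genes Timp1 (-5.70) and Timp3 (-5.30) were among the lower ones.

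Epithelial and mesenchymal genes were counted separately. Of 42 measured epithelial genes 14 were higher in GSC and 8 lower, and of 51 mesenchymal transcription factors and cadherins 2 were higher and 27 lower. Over all genes 15.5% were higher and 12.9% lower. Cdh1, E-cadherin, had 4.31, 5.46 and 5.20 in GSC and 3.05, 3.23 and 3.46 in MEF, a difference of 1.74 ± 0.23. GSC replicate 1 was the lowest of its group, the groups did not overlap, and the levels were close to background. Esrp1, an epithelial splicing factor, rose by 5.37 ± 0.62, Marveld2, a tight junction protein, by 5.08, and the adhesion molecule Epcam by 5.07, with Epcam probe sets of both signs. The keratins Krt8, Krt18, Krt19 and Krt7 fell instead, with differences of -2.33, -1.94, -2.43 and -1.76.

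Prrx1, a homeobox gene of limb and head mesenchyme, had 5.89, 4.53 and 4.86 in GSC and 10.78, 10.85 and 10.84 in MEF and fell by 5.73 ± 0.31. The mesenchymal cadherin Cdh11 fell by 5.90, and N-cadherin, Cdh2, fell by 4.43. The transcription factors Snai2 (-5.09) and Twist1 (-2.03) were lower, and so was vimentin, Vim, with 9.55 in GSC and 13.87 in MEF. Thy1, which is used to sort spermatogonial stem cells and is also a fibroblast antigen, had 6.64, 6.57 and 6.36 in GSC and 10.52, 10.39 and 10.28 in MEF and fell by 3.87 ± 0.25. Among 24 integrins 6 were lower, led by Itgav (-4.79) and Itgb1 (-2.66), both with probe sets of both signs, and 1 was higher, Itgae, the partner that binds E-cadherin (2.05). Over all genes 12.9% were lower and 15.5% higher.

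Of 33 measured Hox genes, which give body cells their position along the axis, 9 were lower and 4 higher. The higher share was near the 15.5% of all genes, and 12.9% of all genes were lower. The lower ones were led by Hoxc8 (-4.31) and Hoxd8 (-2.31), with Hoxc6 at -2.18. Hoxa9 was at 5.88 in GSC and 6.65 in MEF and was not called, whereas the brighter of its probe sets in these 6 arrays gave -4.59. The 4 higher genes were all of the Hoxb cluster: Hoxb13 (3.07), Hoxb1 (1.90), Hoxb4 (1.85) and Hoxb6 (1.56).

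Genes of DNA methylation and Polycomb were higher in 26 of 52 measured cases and lower in 1, Cbx6. Scml2, the X-linked germ line Polycomb protein, had 11.41, 11.24 and 11.07 in GSC and 4.26, 4.56 and 4.51 in MEF, a difference of 6.80 ± 0.19. Dnmt3b, a de novo DNA methyltransferase, rose by 4.49, and its co-factor Dnmt3l by 1.56 with 6.04 in GSC and 4.48 in MEF. Jarid2, a subunit of Polycomb complex PRC2, rose by 4.08. Imprinted genes are expressed from 1 parental copy. Of 27 paternally expressed ones 4 were higher and 7 lower, and of 31 maternally expressed ones 4 were higher and 13 lower. Both higher shares were near the 15.5% of all genes, while 12.9% of all genes were lower. Igf2, a paternally expressed growth factor, fell by 2.61, the maternally expressed Rian fell by 4.80, and the paternally expressed Peg3 was at 8.91 in GSC and 9.38 in MEF. The expressed parental copy is not measured by these arrays.

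**Figure D5:**
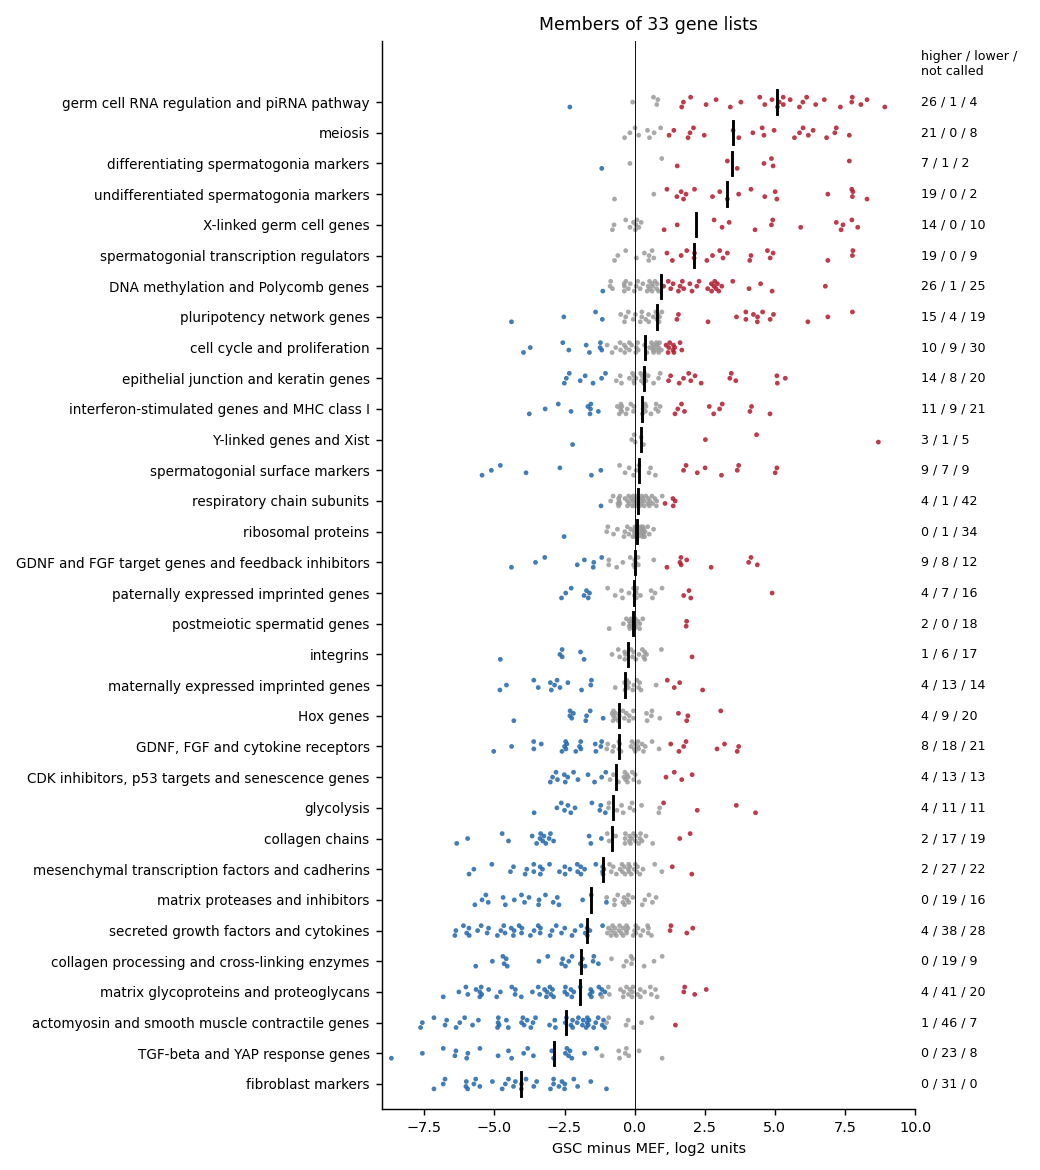
Difference GSC minus MEF (log2 units) of every measured member of 33 gene lists, 1 point per gene, ordered by the list's median (black bar); red points were called higher in GSC, blue points lower and grey points not, with the counts at the right. The germ cell RNA and meiosis lists lie at the top, postmeiotic spermatid genes near the middle and fibroblast, response and contractile lists at the bottom, beside a median of 0.0726 over all genes.

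Proliferation genes did not move one way. Of 49 measured genes 10 were higher, 9 lower and 30 not called, beside 15.5% higher and 12.9% lower over all genes. The replication licensing genes Mcm7, Mcm6 and Cdt1 rose by 1.68, 1.43 and 1.38, with Mcm6 at 0.73 and not called on the mean of its probe sets. The D-type cyclins Ccnd1 (-2.56) and Ccnd2 (-1.17) fell, as did the kinase Cdk6 (-3.96) and the nucleotide reductase Rrm2 (-3.72). Cdkn1a (p21), which stops the cycle on p53 signals, had 9.08, 8.54 and 8.68 in GSC and 11.72, 11.92 and 11.68 in MEF and fell by 3.01 ± 0.16. Cdkn2a, the locus of p16 and p19Arf, was at 6.75 in GSC and 6.73 in MEF and was not called.

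Markers of other testis cells were counted in the same way. None of 7 measured Leydig cell markers was called, and of 16 Sertoli cell markers 2 were higher, Wt1 and Aard, and 2 lower, Kitl and the inhibin subunit gene Inhbb, while the defining markers Gata4 and Amh were not called. Wt1, a zinc finger factor of supporting cells, had 7.19, 6.19 and 5.87 in GSC and 4.63, 4.82 and 4.63 in MEF, a difference of 1.73 ± 0.24, with GSC replicate 1 the highest. The summed level of the Sertoli list was 9.17 to 9.33 in GSC and 10.91 to 11 in MEF on the log2 scale, with Kitl in the sum. Of 8 peritubular myoid markers 5 were lower and 1 higher, and of 15 endothelial markers 2 were lower and none higher. Over all genes 15.5% were called higher and 12.9% lower, and both Sertoli shares and the endothelial lower share were near these. Macrophage markers were higher in 7 of 19 cases and lower in 2, with a median of 0.37 and a summed level of 12.87 to 12.91 in GSC and 10.64 to 10.88 in MEF. Lyz1, a lysozyme, had 12.14, 12.12 and 12.16 in GSC and 9.31, 9.23 and 9.01 in MEF, a difference of 2.95 ± 0.70 that was 0.17 and not called on the probe set specific to Lyz1 by its name. With its near copy Lyz2, at 10.96 in GSC and 8.33 in MEF, it made up most of the GSC sum. The complement gene C1qb had 7.46, 7.18 and 7.53 in GSC and 5.13, 4.61 and 4.30 in MEF, a difference of 2.71 ± 0.30. The defining transcription factor Spi1 was at 5.65 in GSC and 5.62 in MEF and was not called, and Csf1r and Cd14 were lower in GSC. The part of macrophages in either culture was not tested.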

How the data were processed

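Total RNA was labelled with biotin by the Affymetrix One-Cycle method, per the labels' protocols. The authors deposited log2 intensities per probe set, made with RMA (version not given) per the submitters' processing notes. RMA subtracts background, brings the arrays to a common distribution and combines the probes of each set, without a detection call. Whether all 20 arrays went through it together is not given in the sources used here. The log2 values were used as deposited, without further scaling.

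Of 45101 probe sets, 64 controls, 932 with several gene symbols and 9160 without one were left out. The remaining 34945 stood for 18193 genes, of which 9010 had more than 1 probe set. Means of 6 groups over 20 arrays were fitted with limma 3.58.1 in R 4.3.3 (lmFit, eBayes), without covariates, and p-values were adjusted over all genes. SE is limma's moderated standard error. On simulated data with 18193 genes the fit called 54% of changes of 1 log2 unit and 100% of changes of 1.5 or more, with 0 false calls. The noise there was independent and normal, with 1 spread per gene for all groups, and 50 genes were changed at each size. A change of 1 log2 unit lies at the 2-fold limit itself. The real GSC arrays spread more widely than the MEF arrays, so the simulation gives no error rate for the calls. The number of arrays limits the precision.

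The members and the 39 gene lists were chosen with earlier results of these data known. Genes could be named from 49 key genes, from the gene pairs, from each list (up to 6 called members each way with the largest differences, and up to 3 uncalled ones nearest to 0), and from the 12 strongest rises and the 12 strongest falls. Names outside this rule are marked as chosen after their values were seen. The alternatives were other normalizations, weights, probe set rules and thresholds, fewer groups in the fit, the replicate block and fits without 1 array at a time. Sequences came from RefSeq (GRCm38.p6), with the first listed window where a gene has several. Tables and figures used pandas 2.3.3 and numpy 2.4.6 in Python 3.11.15, and matplotlib 3.10.9.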

Additional observations from a re-analysis of the deposited data

How the results depend on the processing

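The 5169 calls became 5103 to 5264 when 1 array was left out, the 2827 higher calls 2708 to 2921 and the 2342 lower calls 2335 to 2395. Under other normalizations, array choices, weights and probe set rules the calls numbered 4294 to 5216. With no fold threshold 9951 genes passed, 5624 higher and 4327 lower. At a threshold of at least 4-fold 2034 passed, 925 higher and 1109 lower. With probe sets in place of genes 10095 were called, 4991 higher and 5104 lower. Deviations of GSC and MEF arrays with the same replicate number correlated at 0.077, 0.02 and -0.013, and those with different numbers at -0.059 to 0.045. So few arrays cannot decide whether the numbers pair them. The replicate block gave 5171 calls, 2828 higher and 2343 lower. Of 3192 differences under the alternatives, for the 190 genes given with values, 3175 kept their direction and side of the threshold. The changed ones belong to 12 genes, whose values stand beside them except for Lif, which was called at -1.01 without GSC replicate 2, at -1.07 without GSC replicate 3 and at -1.04 without MEF replicate 3. Hoxa9 was also called at -2.68 and Lhx1 at 1.48 on the mean of their probe sets, and Srf was not, at -0.44. Srf changed sign to 0.18 without probe sets of shared sequence; that setting takes another probe set. With all 31 fibroblast markers the level in GSC was 5.73% to 6.11% of MEF. With the neural stem cell level subtracted it was 0.381% to 0.550% over 22 markers, a setting that put embryonic stem cells at -1.57% to -1.04%. The depth of an array has no count, and levels under 4.98 set the limit on low genes.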

Other observations

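Of 26 measured glycolysis genes 4 were higher in GSC, a share near the 15.5% of all genes, and 11 lower, with a median of -0.77. The kinase Pgk1 (-3.58), the lactate dehydrogenase Ldha (-2.62) and the isomerase Tpi1 (-2.50) fell. Aldoc, the brain form of aldolase, rose by 4.31, the glucose transporter Slc2a3 by 3.62 and Pdk1, which holds back pyruvate oxidation, by 2.23. Aldoc was at 0.24 and not called on its probe set of unshared sequence. Respiratory chain subunits were higher in 4 of 47 measured cases and lower in 1, a smaller share than the 28.4% of all genes called, and ribosomal proteins were lower in 1 of 35, Rps25, at 7.69 in GSC and 10.20 in MEF. The other 34 ribosomal proteins were not called.

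Interferon-stimulated and antigen presentation genes ran both ways, with 11 of 41 measured genes higher in GSC and 9 lower, beside 15.5% higher and 12.9% lower over all genes. Oasl2, an antiviral oligoadenylate synthetase relative, rose by 4.82, the GTPase Gbp3 by 4.11 and the transcription factor Irf1 by 3.03, while Mx1 was at 3.12 in GSC and 3.16 in MEF. The Ifitm family, membrane proteins that restrict virus entry and mark early germ cells, split: Ifitm1 had 10.25, 10.51 and 10.38 in GSC and 6.30, 6.09 and 6.26 in MEF, and Ifitm3 had 7.96, 8.06 and 8.26 in GSC and 11.90, 11.85 and 11.80 in MEF. The first rose by 4.17 and the second fell by 3.76, and the groups overlapped in neither. Among p53 targets and cell cycle inhibitors 4 of 30 were higher, a share near the 15.5% of all genes, and 13 lower. Sesn1, a stress-induced inhibitor of growth signals, rose by 2.05. The p53 targets Plk2 (-2.93) and Zmat3 (-2.75) fell.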
